A study of Homo sapiens with 12 samples.

Results

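Actinomycin D at 50 nM and at 5 nM left A673 cells with different transcript profiles after 24 h. A673 is a cell line from an Ewing sarcoma, a tumour driven by EWS-FLI1, in which part of EWSR1 is joined to FLI1, a gene of the ETS transcription factors. The contrast rests on 4 of the 12 arrays in the series, 2 of cells given 50 nM and 2 of cells given 5 nM, chosen by their labelled dose. The other arrays are 2 each of untreated cells, cells given the vehicle DMSO for 24 h, and cells given FLI1 or lacZ shRNA for 48 h. They enter the fit only through its shared estimate of spread, and the DMSO arrays also serve as the level without drug. The sources do not say that the 2 arrays at 50 nM came from separate cultures, and describe the 5 nM treatment only as done in duplicate, so the p-values measure the spread between arrays, which may be technical. All values are log2 RMA signals from Affymetrix Gene 1.0 ST arrays, and a difference is the mean at 50 nM minus the mean at 5 nM, with its standard error (SE). A gene was called higher or lower at an adjusted p under 0.05 in limma over 18404 genes.

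Actinomycin D is a peptide antibiotic that slides its flat ring system between stacked DNA base pairs, preferring steps where G is followed by C, and stalls RNA polymerases that are moving along the template. Transcription of ribosomal RNA by RNA polymerase I is known to be blocked at lower concentrations than transcription by RNA polymerase II. When new synthesis slows, the amount of each transcript also depends on how fast it decays. Immediate-early genes, which are switched on within minutes of a stimulus and make unstable mRNAs, are a textbook class of fast-decaying transcripts. RMA gives every array the same distribution of signals, so a loss of RNA common to all genes cannot be seen here, and in RNA from whole cultures fewer cells and less RNA per cell cannot be told apart.

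The 2 doses differed in a large share of the genes measured. At 50 nM, 3973 of 18404 genes (21.6%) were higher than at 5 nM and 4253 (23.1%) were lower, 8226 (44.7%) in all, while 10178 (55.3%) did not pass. More than a 2-fold difference with an adjusted p under 0.01, the threshold the study uses, was reached by 797 genes higher at 50 nM (4.33%) and 1224 lower (6.65%). Past 4-fold there were 64 genes higher and 127 lower, and single differences ran from -3.28 for ZNF670 to 3.23 for SYT1. The balance of directions depended on the scaling. When arrays were centred on 58 ribosomal protein genes, the median of all genes moved from 0.021 to 0.121, 5304 genes were higher and 3551 lower, and past 2-fold 999 were higher and 1010 lower. Calls higher at 50 nM thus made up 48.3% of all calls as deposited and 59.9% with that centring, and past 2-fold 39.4% and 49.7%.

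Markers of the cell line had a median level of 10.34 at 5 nM and 10.68 at 50 nM. NKX2-2 and FLI1 averaged 7.62 and 7.66 at 50 nM, near the median of 7.36 for all genes. CD99, the surface protein used to recognise Ewing sarcoma, read 12.24 and 12.15 at 5 nM and 12.36 and 12.35 at 50 nM, a difference of 0.16 (SE 0.07, adjusted p = 0.086). Of 9 markers of Ewing sarcoma lines measured, all 9 lay above the median level of all genes at 5 nM. At 50 nM 5 (55.6%) were higher and 3 (33.3%) lower, beside 21.6% and 23.1% of all genes. FLI1, whose 3′ part is in the fusion, read 8.50 and 8.55 at 5 nM and 7.71 and 7.60 at 50 nM, against 8.59 and 8.61 with DMSO. Both 50 nM arrays lay below both others, a fall of 0.87 on the log2 scale (SE 0.09, adjusted p = 1.8e-05). EWSR1, which encodes an RNA-binding protein, went the other way, from 8.28 and 8.35 to 8.76 and 8.87, by 0.50 (SE 0.07, adjusted p = 0.0002). The probes do not separate the fusion transcript from the unfused genes. Of markers of other cells, 0 of 8 blood and 0 of 10 epithelial genes passed in limma, with 1 and 0 at an unadjusted p under 0.05, and at most 1 of either list passed in a direction under any alternative. Of 10 endothelial markers KDR was lower (-0.46, SE 0.12) and PECAM1 higher (0.43, SE 0.09), both at levels under 6.5.

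The 12 largest rises at 50 nM relative to 5 nM, among genes above the median level, were in long genes. SYT1, the calcium sensor of synaptic vesicle release, read 7.13 and 7.47 at 5 nM and 10.54 and 10.51 at 50 nM. That is 9.35-fold higher (log2 difference 3.23, SE 0.10, adjusted p = 8.7e-09), with no overlap between the doses, and the DMSO arrays, at 10.78 and 10.85, lay close to 50 nM. NFIA, a transcription factor of the nuclear factor I family, read 7.81 and 7.66 at 5 nM and 10.68 on both arrays at 50 nM, a difference of 2.94 (SE 0.08). GRK5, a kinase that desensitises G protein-coupled receptors, read 7.48 and 7.57 at 5 nM and 10.28 and 10.35 at 50 nM, and GNAQ, the alpha subunit of a G protein, read 7.94 and 7.65 against 10.56 and 10.58. A second probe set of GNAQ gave 4.37 where the one used gave 2.78, and a second one of GRK5 gave 1.43 where the one used gave 2.79. In all 4 genes the low readings belonged to 5 nM, and the 50 nM means came within 0.32 of the DMSO means.

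The other 8 of the 12 largest rises were also lowest at 5 nM. They were TPTE2 (2.89, SE 0.21), RSRC1, a splicing-related protein (2.81, SE 0.18), CASK, a synaptic scaffold kinase (2.59, SE 0.09), FMNL2, an actin-nucleating formin (2.54, SE 0.09), TENM2, a teneurin adhesion receptor (2.53, SE 0.10), NDST4, a heparan sulfate modifying enzyme (2.53, SE 0.12), MED13L of the Mediator kinase module (2.48, SE 0.07) and SIPA1L1, a Rap GTPase regulator (2.44, SE 0.07). Their mean levels at 5 nM lay 2.58 to 3.41 below DMSO, whereas at 50 nM they lay between 0.98 below and 0.16 above DMSO. TPTE2 and RSRC1 had the widest spread between the 5 nM arrays, 8.92 and 8.10 for TPTE2 and 7.91 and 7.20 for RSRC1. All 12 genes span over 100 kb of genome, from 139 to 1290 kb.

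The 12 largest falls, again among genes above the median level, included no gene over 100 kb. PUS3, a pseudouridine synthase that modifies transfer RNA, read 10.06 on both arrays at 5 nM and 7.18 and 6.92 at 50 nM. It was 8.07-fold lower at 50 nM (-3.01, SE 0.10, adjusted p = 1e-08), and DMSO, at 8.44 and 8.42, lay between the doses. RPP38, a protein of the RNase P complex that trims transfer RNA, read 9.44 and 9.43 at 5 nM and 6.81 and 6.60 at 50 nM (-2.73, SE 0.09), and there the DMSO arrays, at 9.05 and 8.95, lay nearer to 5 nM. UTP25, a factor of small ribosomal subunit assembly, read 10.36 and 10.39 against 7.73 and 7.63 (-2.70, SE 0.08). In all 3 the 50 nM arrays lay below DMSO. BAMBI, a decoy receptor of TGF-beta signalling, went from 11.39 and 11.21 to 8.68 and 8.50 (-2.71, SE 0.09). FBXO5, an inhibitor of the anaphase-promoting complex, went from 11.60 and 11.45 to 8.79 and 8.88 (-2.69, SE 0.10), and FAM43A from 10.88 and 11.10 to 8.35 and 8.27 (-2.68, SE 0.08). The rest of the 12 are the immediate-early genes NR4A2 and TRIB1, the zinc-finger genes ZNF845, ZNF850 and ZNF468, and the small nucleolar RNA SNORD78, all described with their groups. None of the 12 spans more than 29.6 kb, beside a median span of 27.3 kb for all protein-coding genes.

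**Figure D1:**
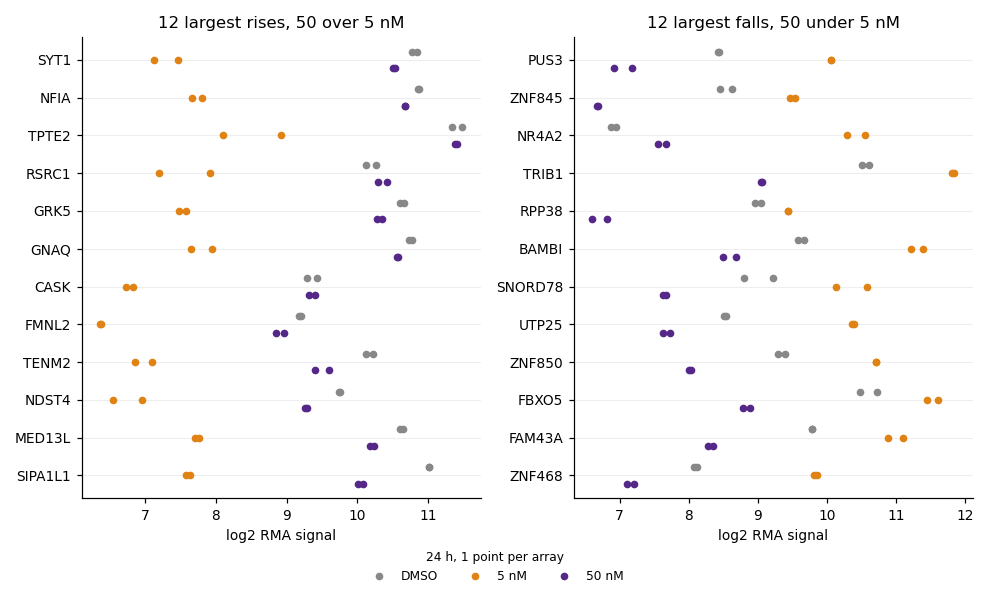
Per-array log2 RMA signal (x axis) of the 12 genes with the largest rise (left) and the 12 with the largest fall (right) from 5 to 50 nM actinomycin D, with DMSO. Points are single arrays, 2 per group. On the left the 5 nM points stand apart at low signal and the 50 nM means lie from 0.98 below to 0.16 above the DMSO means, and on the right the 5 nM points are highest and the 50 nM points lowest, except for NR4A2, where DMSO is lowest.

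The difference between the doses went with gene span. Among 7447 protein-coding genes whose mean over the arrays was above 8 on the log2 scale, Spearman's rho between the difference and the span was 0.519, a description across genes that share the same 4 arrays and are not independent replicates. Of the 65 such genes that span over 500 kb, 63 (96.9%) were higher at 50 nM and 1 was lower, with a median difference of 1.38. Between 200 and 500 kb 328 of 366 genes were higher, median 1.09, and between 50 and 100 kb 688 of 1275 were higher and 287 lower, median 0.29. Under 5 kb 56 of 707 genes were higher and 326 (46.1%) lower, median -0.19. Over all 16894 protein-coding genes with a span, dim ones included, rho was 0.335 and the bins differed much less. There 141 of 290 genes over 500 kb (48.6%) were higher, median 0.25, and 559 of 1005 between 200 and 500 kb (55.6%), median 0.38, so the longest bin was not the highest. The genes more than 2-fold higher at 50 nM had a median span of 166 kb, and 75.8% of them spanned over 100 kb. Those more than 2-fold lower had a median span of 19.1 kb, with 2.2% over 100 kb, beside 27.3 kb and 18.2% for all genes.

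The level without drug placed these groups of genes differently. The genes more than 2-fold higher at 50 nM had median levels of 9.43 with DMSO, 7.78 at 5 nM and 9.28 at 50 nM. Those more than 2-fold lower had 8.69, 9.33 and 7.79 in the same order. Since these genes were chosen by the difference between the doses, only the DMSO value is free of that choice. In the bins of span, which do not use the difference, genes of a mean above 8 and over 500 kb had a median 1.54 below DMSO at 5 nM and 0.13 below it at 50 nM, and genes under 5 kb a median 0.38 above DMSO at 5 nM and 0.20 above it at 50 nM. Over all protein-coding genes the bin over 500 kb had a median 0.28 below DMSO at 5 nM and 0.07 above it at 50 nM. For genes of a mean above 8, the bins at 50 nM lay between 0.31 below and 0.20 above DMSO, and at 5 nM between 1.54 below and 0.39 above.

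**Figure D2:**
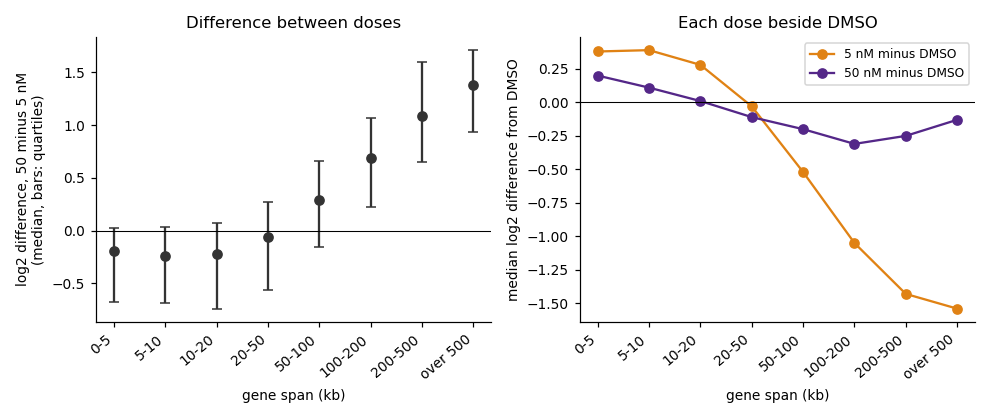
Left, log2 difference between 50 and 5 nM (median, bars are quartiles) by gene span in kb, for protein-coding genes averaging above 8 on the log2 scale. Right, median log2 difference of each dose from DMSO over the same bins. The median difference between doses goes from -0.19 under 5 kb to 1.38 over 500 kb, and the 5 nM line falls to -1.54 while the 50 nM line stays between -0.31 and 0.20.

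Immediate-early genes were mostly lower at 50 nM. Of 44 measured, 38 (86.4%) were lower and 3 (6.82%) higher, beside 23.1% and 21.6% of all genes, and the median difference was -0.92 with an SD of 0.03 over the 4 pairings of arrays, beside 0.021 for all genes. Under the other scalings 36 to 38 were lower and the median lay between -0.82 and -0.88. The list median was 8.62 with DMSO, 9.95 at 5 nM and 8.97 at 50 nM. The shares of all genes, here and for later lists, include dim genes, which passed less often. Among protein-coding genes of a mean above 8, 46.1% of those under 5 kb were lower and 7.92% higher. Between 20 and 50 kb these shares were 39.2% and 28.1%. The immediate-early list has a median span of 4.71 kb.

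Promoter sequences were set beside these values because serum response factor and CREB, the factors best known to switch on immediate-early genes, bind short motifs close to the start site. RefSeq (GRCh38.p14) gave promoter windows of 300 bases for 33 of the 44 genes. The cAMP response element TGACGTCA, which reads the same on both strands, was in 4 of the 33 windows (12.1%) and in 1.98% of all 27305 windows. The CArG box of serum response factor was in 2 of the 33 (6.06%) against 1.29% of all windows. The TATA box TATAAA, searched on both strands, was in 9 (27.3%) against 12%. For genes tested these shares were 1.22% and 9.0%. A match is a description of the letters and not evidence of binding. The shorter string TGACG was in 19 of the 33 windows (57.6%), against 29.8% for genes tested. The 250 bases before the start are shown for DUSP1 and PPP1R15A, which hold a cAMP response element and a TATA box. They are also shown for EGR1 and SRF, which hold 2 CArG boxes each, and for PLK2. PLK2 has the largest difference among genes with a window, and no exact match to these motifs was found there. Near matches were not counted, and the PLK2 bases hold tatataag and tgacgtga, which resemble the TATA box and the cAMP response element. Capitals mark the exact matches to the full motifs.
DUSP1 promoter, GRCh38.p14 chr5:172771196-172771445, minus strand: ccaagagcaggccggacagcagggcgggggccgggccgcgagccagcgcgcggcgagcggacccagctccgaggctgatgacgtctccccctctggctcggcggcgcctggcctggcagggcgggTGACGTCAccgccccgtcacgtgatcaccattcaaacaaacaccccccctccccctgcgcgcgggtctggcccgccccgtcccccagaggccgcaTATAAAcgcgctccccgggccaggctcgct
PPP1R15A promoter, GRCh38.p14 chr19:48872171-48872420, plus strand: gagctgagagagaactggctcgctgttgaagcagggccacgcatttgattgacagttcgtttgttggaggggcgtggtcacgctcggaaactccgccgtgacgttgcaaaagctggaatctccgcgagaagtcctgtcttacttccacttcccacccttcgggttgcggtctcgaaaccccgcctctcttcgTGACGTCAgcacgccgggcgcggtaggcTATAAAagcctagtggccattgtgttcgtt
EGR1 promoter, GRCh38.p14 chr5:138465229-138465478, plus strand: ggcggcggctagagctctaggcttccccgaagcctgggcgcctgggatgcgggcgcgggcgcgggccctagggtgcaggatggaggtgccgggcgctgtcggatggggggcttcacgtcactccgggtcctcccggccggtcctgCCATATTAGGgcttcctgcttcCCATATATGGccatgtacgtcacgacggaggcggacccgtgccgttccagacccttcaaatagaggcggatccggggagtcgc
SRF promoter, GRCh38.p14 chr6:43171019-43171268, plus strand: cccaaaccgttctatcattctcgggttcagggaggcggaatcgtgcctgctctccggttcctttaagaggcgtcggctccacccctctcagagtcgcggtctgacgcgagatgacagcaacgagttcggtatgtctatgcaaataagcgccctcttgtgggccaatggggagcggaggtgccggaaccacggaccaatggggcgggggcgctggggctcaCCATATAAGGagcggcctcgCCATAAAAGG
PLK2 promoter, GRCh38.p14 chr5:58460087-58460336, minus strand: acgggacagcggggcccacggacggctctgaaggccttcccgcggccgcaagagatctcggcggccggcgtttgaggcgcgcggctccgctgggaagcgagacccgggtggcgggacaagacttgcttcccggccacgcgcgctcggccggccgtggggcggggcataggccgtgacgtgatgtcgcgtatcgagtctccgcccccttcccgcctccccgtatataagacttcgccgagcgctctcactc

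Single members of the immediate-early list differed widely in size, and the 4 largest differences were in NR4A2, TRIB1, PLK2 and MYC. NR4A2, an orphan nuclear receptor, read 10.29 and 10.55 at 5 nM and 7.67 and 7.56 at 50 nM, against 6.88 and 6.94 with DMSO, and was 6.99-fold lower at 50 nM (-2.81, SE 0.12, adjusted p = 2.3e-08). PLK2, a stress-responsive kinase that is also a p53 target, read 10.46 and 10.49 at 5 nM, 8.45 and 8.38 at 50 nM and 5.74 and 5.63 with DMSO (-2.06, SE 0.09). Both genes kept a level above DMSO at 50 nM. TRIB1, a pseudokinase that brings substrates to a ubiquitin ligase, read 11.84 and 11.81 at 5 nM and 9.05 and 9.06 at 50 nM, below the DMSO readings of 10.60 and 10.51 (-2.77, SE 0.07). MYC, the growth-promoting transcription factor, was also below DMSO at 50 nM, with 11.41 and 11.28 at 5 nM, 9.42 and 9.56 at 50 nM and 11.02 and 11 with DMSO (-1.86, SE 0.08). In these 4 genes the arrays of the 2 doses did not overlap.

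The genes whose promoters are printed had smaller differences than NR4A2. DUSP1, a phosphatase that switches off MAP kinases, read 11.17 and 11.13 at 5 nM and 9.78 and 9.80 at 50 nM (-1.36, SE 0.07). PPP1R15A, which directs a phosphatase to the translation factor eIF2, read 9.95 and 9.96 against 9.02 and 9.04 (-0.92, SE 0.11). SRF, serum response factor itself, read 10.70 and 10.76 against 9.74 and 9.81 (-0.95, SE 0.07). In each the 5 nM arrays were highest and the 50 nM arrays lowest, with DMSO between. EGR1, a zinc-finger activator, read 10.77 and 11.07 against 10.18 and 10.39 (-0.64, SE 0.10), and its DMSO arrays, at 11.53 and 11.51, lay above both doses. The 3 members higher at 50 nM were EGR4 (0.68, SE 0.11), ID3 (0.43, SE 0.13) and FOSB (0.35, SE 0.11). Without 50 nM array 1, or without 5 nM array 2, 1 was higher, and with the 4 arrays alone 2 were. The 3 that did not pass were KLF4 (-0.26), ZFP36 (-0.14) and KLF2 (0.10).

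Negative feedback regulators of growth factor signalling fell with them. These genes are themselves switched on by MAP kinase signalling and damp it. Of 20 measured, 14 (70.0%) were lower at 50 nM and 0 higher, beside 23.1% and 21.6% of all genes, with a median of -1.21 (SD 0.14). Past 2-fold 11 were lower, beside 6.65% of all genes. Under other scalings the median stayed between -1.11 and -1.21. SPRY4, a Sprouty inhibitor of receptor tyrosine kinase signalling, read 10.13 and 10.16 at 5 nM and 7.95 and 8.09 at 50 nM (-2.13, SE 0.09). DUSP7 (-2.12, SE 0.10) and DUSP6 (-1.82, SE 0.08) encode phosphatases of ERK, and ERRFI1 (-1.76, SE 0.07) a feedback inhibitor of the EGF receptor. All 4 were above DMSO at 5 nM and below it at 50 nM. The members that did not pass were SPRED1, SPRED2, SPRED3, DUSP2, DUSP8 and DUSP10, with differences from -0.12 to 0.15.

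The MYC network followed the same direction. MYC family proteins and the MXD proteins that oppose them share the partner MAX. Of 13 members measured, 10 (76.9%) were lower and 0 higher, beside 23.1% and 21.6% of all genes, median -0.62 (SD 0.01), and the direction held under every scaling tried. After MYC the largest differences were in MXD1 (-1.37, SE 0.10), MYCN (-1.25, SE 0.10) and MXD4 (-0.77, SE 0.08), and in these 3 the 50 nM means lay within 0.07 of the DMSO means.

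Targets of p53 were mostly lower at 50 nM too. Of 36 measured, 20 (55.6%) were lower and 4 (11.1%) higher, beside 23.1% and 21.6% of all genes, median -0.51 (SD 0.13). More than 2-fold lower were 10, beside 6.65% of all genes. PPM1D, the phosphatase that switches p53 off again, read 9.65 and 9.29 at 5 nM and 7.39 and 7.53 at 50 nM (-2.01, SE 0.11), and DMSO, at 9.65 and 9.56, was close to 5 nM. SESN2, a sestrin that restrains growth signalling in stressed cells, read 9.32 and 9.44 against 7.56 and 7.64 (-1.77, SE 0.08). PLK3, a kinase of the stress response, read 9.13 and 8.89 against 7.35 and 7.36 (-1.66, SE 0.11). CDKN1A, the p21 inhibitor of cyclin-dependent kinases, read 9.53 and 9.51 at 5 nM, 8.57 and 8.56 at 50 nM and 8.34 and 8.35 with DMSO (-0.96, SE 0.06). The 4 members higher at 50 nM were BAX (0.22), MDM2 (0.31), CYFIP2 (0.56) and APAF1 (0.64). CDKN1A and these 4 were chosen after their values were seen.

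In the BCL2 family single members differed while the family had no direction of its own. Of 19 measured, 6 (31.6%) were lower and 5 (26.3%) higher, beside 23.1% and 21.6% of all genes, and 2 were higher without 50 nM array 1 and 3 without 5 nM array 1. The median of -0.04 turned to between 0.01 and 0.06 under the other 3 scalings and to 0.04 and 0.01 without 5 nM array 1 or 2. BCL2L11, which encodes the death-promoting protein BIM, read 9.29 and 9.34 at 5 nM and 6.75 and 6.87 at 50 nM, and DMSO read 7.23 and 7.09. It was 5.68-fold lower at 50 nM (-2.51, SE 0.09, adjusted p = 1e-08), with no overlap. MCL1, a survival protein with an unstable mRNA, read 11.56 and 11.61 against 9.80 and 9.92 (-1.73, SE 0.07). PMAIP1, which encodes NOXA, read 12.20 and 12.15 against 10.99 and 10.94, and DMSO read 9.98 and 9.90 (-1.21, SE 0.09). BMF was lower by a similar amount (-1.20, SE 0.09). Death-promoting and survival members were thus both among the falls, and BCL2 itself, a long gene, was higher at 50 nM (0.73, SE 0.08).

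The list of NF-kB and inflammatory genes had 19 of 38 (50.0%) lower and 3 (7.89%) higher, beside 23.1% and 21.6% of all genes. With the 4 arrays alone 1 was higher. The list's median span is 10.3 kb. Of all protein-coding genes between 10 and 20 kb, 33.8% were lower and 9.3% higher. Of those with a mean above 8, 50.1% were lower and 12.8% higher. The list median was -0.30 (SD 0.08). NFKBIA, the inhibitor that NF-kB induces to hold itself in the cytoplasm, read 10.93 and 10.82 at 5 nM and 8.89 and 8.87 at 50 nM (-2.0, SE 0.10). REL, a subunit of NF-kB, read 9.19 and 9.17 against 7.31 and 7.28 (-1.88, SE 0.07). TNFAIP3, the ubiquitin-editing enzyme A20, fell by 1.72 (SE 0.10) and the cytokine IL1A by 1.70 (SE 0.10) on the log2 scale. The means of both were above DMSO at 5 nM and within 0.35 of it at 50 nM. The chemokine gene CXCL8 went the other way, from 7.40 and 7.41 to 8.29 and 8.35 (0.92, SE 0.08), and was named after its value was seen. Interferon-stimulated genes had 13 of 39 (33.3%) lower and 3 higher, beside 23.1% and 21.6% of all genes, median -0.14 (SD 0.06), and 7 lower when dim genes were left out. They were led by IFIT1, an RNA sensor (-1.92, SE 0.18), IFIT2 (-1.74, SE 0.13), IFIT5 (-1.65, SE 0.09) and DTX3L (-1.41, SE 0.12).

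Genes for the control of transcription differed in both directions. In the list of P-TEFb and elongation factors, 14 of 28 (50.0%) were lower and 6 (21.4%) higher, beside 23.1% and 21.6% of all genes, median -0.21 (SD 0.01). P-TEFb is the kinase that releases paused RNA polymerase II. Its cyclins were lower at 50 nM, CCNT1 with 11.62 and 11.64 against 10.05 and 10.01 (-1.61, SE 0.07) and CCNT2 with 10.16 and 10.08 against 8.59 and 8.52 (-1.56, SE 0.07). So were its kinase CDK9 (-1.25, SE 0.08), its inhibitor HEXIM1 (-1.16, SE 0.07) and MEPCE, the capping enzyme of the 7SK RNA that holds it inactive (-1.48, SE 0.07). BRD2, a bromodomain protein that binds acetylated histones, read 12.20 and 12.19 against 10.51 and 10.38 (-1.74, SE 0.07). Of the super elongation complex, the scaffolds AFF4 (0.86, SE 0.07) and AFF1 (0.94, SE 0.09) and the subunit MLLT3 (1.89, SE 0.11) were higher at 50 nM. CDK9, HEXIM1, MEPCE, AFF1 and AFF4 were named after their values were seen.

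General factors of RNA polymerase II had 14 of 41 (34.1%) lower and 12 (29.3%) higher, beside 23.1% and 21.6% of all genes. The list has a median span of 28.8 kb, and 40 members lay above the median level of all genes at 5 nM. Among protein-coding genes of a mean above 8 between 20 and 50 kb, 39.2% were lower and 28.1% higher. The list median of 0.04 (SD 0.06) turned to -0.04 without 5 nM array 2. GTF2B, the factor that bridges the polymerase and the TATA-binding protein, read 10.95 and 10.92 at 5 nM and 8.66 and 8.65 at 50 nM (-2.28, SE 0.07). TBP, the TATA-binding protein, was lower by 1.59 (SE 0.11) and TAF7 of the TFIID complex by 1.60 (SE 0.11). MNAT1, an assembly factor of the TFIIH kinase and a gene of 235 kb, was higher by 1.55 (SE 0.09). Splicing factors were balanced, with 11 of 36 lower and 10 higher, median 0.06 (SD 0.01). CLK1, a kinase of splicing factors, read 10.24 and 10.11 against 8.35 and 8.31 (-1.85, SE 0.10), whereas SRPK2, another such kinase and a gene of 285 kb, went from 7.46 and 7.28 to 8.92 and 8.82 (1.5, SE 0.08). HNRNPA1 was lower by 1.46 (SE 0.13). CLK4 read -1.14 (SE 0.11) on the probe set used and 0.15 on another.

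Regulators of mRNA decay differed in both directions. Of 31 measured, 14 (45.2%) were lower and 9 (29.0%) higher, beside 23.1% and 21.6% of all genes, median -0.14 (SD 0.04). Their median span is 21.9 kb. Among protein-coding genes of a mean above 8 between 20 and 50 kb, 39.2% were lower and 28.1% higher. The lower ones were led by BTG1 with 11.51 and 11.58 at 5 nM and 9.23 and 9.35 at 50 nM (-2.26, SE 0.08), TOB2 (-1.96, SE 0.08), ZFP36L1 (-1.51, SE 0.10) and CNOT8 (-1.43, SE 0.09). BTG1 and TOB2 are antiproliferative adaptors of the CCR4-NOT deadenylase, ZFP36L1 brings it to AU-rich mRNAs, and CNOT8 is one of its nucleases. Its scaffold CNOT1 was higher at 50 nM, with 10.55 and 10.64 against 11.65 on both arrays (1.06, SE 0.07). So were another nuclease, CNOT6 (1.36, SE 0.09), and the exonuclease XRN1 (1.31, SE 0.07). CNOT1, CNOT6 and XRN1 were named after their values were seen.

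Zinc-finger genes, the list with the most members, were mostly lower at 50 nM. Genes named ZNF mostly encode DNA-binding repressors, many with a KRAB domain that recruits heterochromatin proteins, and a large part of them stand in clusters on chromosome 19. Of 494 measured, 318 (64.4%) were lower and 23 (4.66%) higher, beside 23.1% and 21.6% of all genes. By more than 2-fold 174 of the 494 were lower, beside 6.65% of all genes. The median difference of the ZNF genes was -0.62 (SD 0.05), and between -0.52 and -0.62 under the other scalings. These genes resemble each other in sequence, so probes may share signal between relatives, which are then not independent. The list median was 7.57 with DMSO, 7.70 at 5 nM and 6.93 at 50 nM.

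ZNF670 had the largest fall of all genes measured, and stands outside the 12 largest falls because its mean level is below the median gene. It read 8.80 and 8.72 at 5 nM, 5.69 and 5.28 at 50 nM and 7.70 and 7.51 with DMSO, 9.71-fold lower at 50 nM than at 5 nM (-3.28, SE 0.13, adjusted p = 1.8e-08). ZNF845 read 9.54 and 9.47 against 6.67 and 6.69 (-2.82, SE 0.10), and ZNF850 10.71 and 10.70 against 8.00 and 8.03 (-2.69, SE 0.07). ZNF468 read 9.85 and 9.81 against 7.10 and 7.21 (-2.68, SE 0.11). In all 4 the 5 nM arrays stood above DMSO and the 50 nM arrays below it. On chromosome 19, 173 of 237 ZNF genes (73.0%) were lower, median -0.89, and on other chromosomes 145 of 257 (56.4%), median -0.41. Among the 1071 other genes of chromosome 19, 213 (19.9%) were lower and the median was 0.02, beside 23.1% and 0.021 for all genes. The difference between the ZNF genes of chromosome 19 and those elsewhere was not tested.

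**Figure D3:**
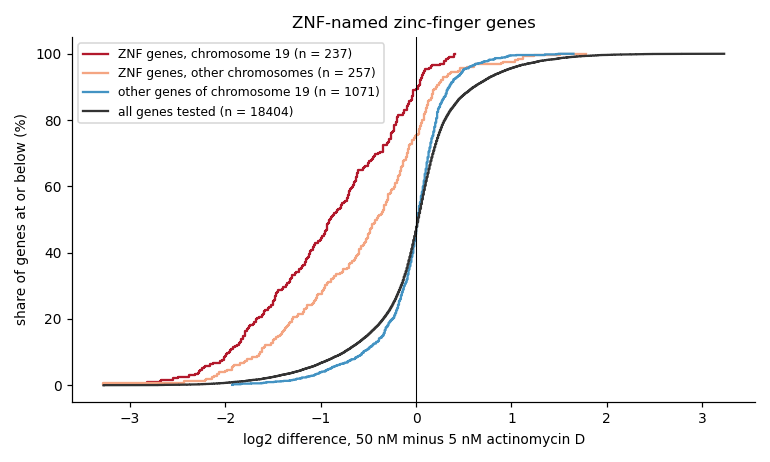
Cumulative share of genes (y axis, %) by log2 difference between 50 and 5 nM (x axis) for ZNF genes on chromosome 19 (n = 237), ZNF genes elsewhere (n = 257), the other genes of chromosome 19 (n = 1071) and all 18404 genes. Both ZNF curves lie to the left of the others, with medians of -0.89 and -0.41, while the other genes of chromosome 19 have a median of 0.02.

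Genes of ribosome production were mostly lower at 50 nM than at 5 nM, and most ribosomal protein genes did not pass. In the list of RNA polymerase I and ribosome biogenesis, 30 of 47 (63.8%) were lower and 4 (8.51%) higher, beside 23.1% and 21.6% of all genes. The list median was -0.44 (SD 0.07). POLR1B, the second largest subunit of RNA polymerase I, read 10.20 and 10.09 at 5 nM and 7.99 and 8.18 at 50 nM, and DMSO, at 10.11 and 10.15, was level with 5 nM (-2.06, SE 0.08). NOP2, a methyltransferase of ribosomal RNA, read 11.52 and 11.50 against 9.64 and 9.51 (-1.94, SE 0.07). POLR1C, a subunit that polymerases I and III share, read 10.93 and 10.68 against 8.99 and 8.79 (-1.92, SE 0.11), and RRS1, an assembly factor of the large subunit, fell by 1.77 on the log2 scale (SE 0.09). POLR1A, the largest subunit and a longer gene, was higher at 50 nM (0.85, SE 0.07) and was named after its value was seen.

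Of 58 cytoplasmic ribosomal protein genes, 9 (15.5%) were lower and 1 higher, with 4 lower without 50 nM array 2 and 5 without 5 nM array 1, median -0.08 (SD 0.04), a sign that turned to 0.02 when arrays were centred on these genes. Of all genes, 23.1% were lower and 21.6% higher. The largest differences among the 58 were RPL17 (-0.76, SE 0.09), RPL27A (-0.49, SE 0.07), RPS7 (-0.35, SE 0.09) and RPL26 (-0.31, SE 0.08). Several of these have near-identical pseudogenes with which array probes may share signal. Mitochondrial ribosomal proteins were lower for 31 of 73 (42.5%) and higher for 14 (19.2%), beside 23.1% and 21.6% of all genes. Their median span is 8.62 kb, and 68 of them lay above the median level of all genes at 5 nM. Among protein-coding genes of a mean above 8 between 5 and 10 kb, 51.0% were lower and 9.77% higher. The list median was -0.11 (SD 0.03, and -0.01 with ribosomal protein centring). The lower ones were led by MRPL44 (-1.56, SE 0.11), MRPL46 (-1.54, SE 0.10), MRPS17 (-1.51, SE 0.13) and MRPS12 (-1.22, SE 0.10). Oxidative phosphorylation genes were 19 of 80 higher and 3 lower, median 0.08 (SD 0.05). That share of 23.8% is near the 21.6% of all genes, and 10 to 12 were higher in a fit of the 4 arrays alone or without either 50 nM array. UQCRB of complex III (0.59, SE 0.14) and NDUFS1, NDUFA9 and NDUFB5 of complex I (0.50 to 0.55) had the largest rises.

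Small nucleolar RNAs, which guide modification of ribosomal RNA and are cut from introns of host genes, were mostly lower where they passed. Of 115 box C/D RNAs measured, 41 (35.7%) were lower and 1 higher, beside 23.1% and 21.6% of all genes, median -0.12 (SD 0.08). Of 77 box H/ACA RNAs, 25 (32.5%) were lower and 10 higher, median -0.15 (SD 0.09). With dim genes left out, 13 box H/ACA RNAs were lower and their median turned to 0.05. SNORD78 had the largest fall, with 10.58 and 10.13 at 5 nM and 7.62 and 7.67 at 50 nM, against 9.22 and 8.80 with DMSO (-2.71, SE 0.16). SNORD77 read 7.43 and 7.10 against 4.84 and 5.14 (-2.28, SE 0.15), and SNORD79 read 10.60 and 10.32 against 8.51 and 8.67 (-1.87, SE 0.14). All 3 lie in introns of one host gene, GAS5, whose own transcript is known for its short life. Of the 7 RNAs of that host measured, 7 were lower at 50 nM, with a median of -1.53 and a range from -2.71 to -0.52, and their median level was 9.01 with DMSO, 10.66 at 5 nM and 9.13 at 50 nM. Both measured RNAs of the host SNHG1 were lower as well, SNORD30 (-1.21) and SNORD28 (-0.91). RNAs of 1 host come from the same precursor and are not independent, and the grouping by host was made after the values were seen. SNORD56B (-1.69, SE 0.19), SNORA3B (-1.89, SE 0.15), SNORA14A (-1.41, SE 0.14), SNORA70B (-1.04, SE 0.16) and SNORA21 (-1.03, SE 0.11) completed the named ones. The 3 small nucleolar RNA host genes measured, SNHG17, EPB41L4A-AS1 and ZFAS1, were lower by 0.27 to 0.58, and another probe set of SNHG17 gave -1.73.

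Of 173 microRNA genes 24 (13.9%) were higher and 14 (8.09%) lower, beside 21.6% and 23.1% of all genes, at a median level of 4.71 at 5 nM. With dim genes left out 1 was higher and 1 lower, and 9 were lower without 50 nM array 1. MIR9-1 read 4.12 and 4.05 at 5 nM and 5.73 and 6.17 at 50 nM (1.87, SE 0.18, adjusted p = 5.9e-06), and DMSO read 4.19 and 4.05. MIR301A read 4.13 and 3.78 against 5.39 and 5.54 (1.5, SE 0.13). It lies within SKA2, which was itself higher at 50 nM by 1.03 (SE 0.07). MIR186 was lower, with 6.94 and 6.55 against 4.90 and 5.24 (-1.67, SE 0.23), as was MIR15A, with 6.59 and 6.34 against 5.49 and 5.22 (-1.11, SE 0.15). MIR221 (-0.92, SE 0.15) and MIR222 (-0.74, SE 0.18), neighbours on the X chromosome that share a seed, were lower together and were named after their values were seen. The array reads the hairpin RNA with its surroundings and not the mature strand alone. Mature strands of these genes, except MIR186, are given from RefSeq with the seed, bases 2 to 8, in capitals, to show which share it. Of the 173 genes, 164 had an entry.
miR-9-5p, GRCh38.p14 chr1:156420392-156420414, minus strand: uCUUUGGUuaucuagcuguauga
miR-301a-3p, GRCh38.p14 chr17:59151149-59151171, minus strand: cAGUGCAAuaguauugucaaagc
miR-15a-5p, GRCh38.p14 chr13:50049167-50049188, minus strand: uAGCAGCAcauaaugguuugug
miR-221-3p, GRCh38.p14 chrX:45746180-45746202, minus strand: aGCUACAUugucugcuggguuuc
miR-222-3p, GRCh38.p14 chrX:45747036-45747056, minus strand: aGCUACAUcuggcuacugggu

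Cell cycle genes moved in both directions. Mitosis genes were lower for 30 of 60 (50.0%) and higher for 16 (26.7%), beside 23.1% and 21.6% of all genes, median -0.23 (SD 0.08). KIF23, a motor of the central spindle, read 11.26 and 11.20 at 5 nM and 9.65 and 9.76 at 50 nM (-1.53, SE 0.07), and CDCA8, a subunit of the chromosomal passenger complex, was lower by 1.51 (SE 0.09). CENPI, a kinetochore protein, was higher by 1.43 (SE 0.13) and HMMR, a spindle protein, by 1.38 (SE 0.08). E2F and DNA replication genes were even, 28 of 74 (37.8%) lower and 27 (36.5%) higher, beside 23.1% and 21.6% of all genes. The list median was 0.00 (SD 0.05, and -0.04 without 5 nM array 2). MSH6, a mismatch repair protein, read 9.78 and 9.67 against 7.39 and 7.30, with DMSO level with 5 nM at 9.81 and 9.96 (-2.38, SE 0.08). E2F8, a repressor of the E2F family (-1.86, SE 0.12), CCNE1, the cyclin of S phase entry (-1.73, SE 0.10), and GINS3 of the replicative helicase (-1.71, SE 0.09) had the next largest differences.

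Replication-dependent histone genes, short and without introns, were lower for 35 of 56 (62.5%) and higher for 8 (14.3%), beside 23.1% and 21.6% of all genes. The list median was -0.51 (SD 0.09). H3C1 read 10.32 and 10.45 at 5 nM and 8.96 and 8.88 at 50 nM, and DMSO read 10.50 and 10.33 (-1.47, SE 0.08). H2AC21 (-1.18, SE 0.12), H4C2 (-1.10, SE 0.11) and H2BC13 (-1.06, SE 0.11) followed, and H2BC26 had the largest rise (0.93, SE 0.08) and was named after its value was seen. The coding regions of these genes are near copies of each other, so their signals cannot be fully separated. Topoisomerases and their repair partners, the enzymes that relieve the twist ahead of polymerases, had 4 of 8 (50.0%) lower and 3 (37.5%) higher. Among all genes the shares were 23.1% and 21.6%. TOP2A was lower by 0.63 (SE 0.08) and TOP3B by 0.57 (SE 0.08), while TOP1 (0.61, SE 0.07) and TDP1 (0.75, SE 0.10) were higher.

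Chromatin regulators were higher at 50 nM for 30 of 67 (44.8%) and lower for 23 (34.3%), beside 21.6% and 23.1% of all genes. The list median was 0.17 (SD 0.07), in a list with a median span of 87.5 kb. ATRX, a remodeller of repeat chromatin, read 7.42 and 7.12 at 5 nM and 9.15 and 9.09 at 50 nM (1.85, SE 0.11), and DMSO read 9.18 and 9.37. EP400, another remodeller, was higher by 1.30 (SE 0.07). CHD8, also a remodeller, read 9.29 and 9.23 against 8.02 and 7.92 (-1.29, SE 0.07), and KDM2A, a histone demethylase, was lower by 1.25 (SE 0.11).

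Axon guidance and adhesion genes were more often higher than lower at 50 nM. Of 54 measured, 28 (51.9%) were higher and 11 (20.4%) lower, beside 21.6% and 23.1% of all genes. These are long genes, with a median span between 200 and 500 kb. Of all protein-coding genes in that range, 55.6% were higher and 3.38% lower. Of those with a mean above 8, 89.6% were higher and 3.55% lower. The list was thus not more often higher than genes of similar span, and more often lower. The list median was 0.36 (SD 0.03), and between 0.32 and 0.46 under other scalings. SEMA3D, a secreted semaphorin, read 8.26 and 8.05 at 5 nM and 10.30 and 10.22 at 50 nM (2.10, SE 0.09). SLIT2, the ligand of ROBO receptors, read 8.02 and 8.15 against 10.00 and 10.08 (1.95, SE 0.08), and SEMA3A 6.96 and 7.00 against 8.83 and 9.0 (1.94, SE 0.10). In these 3 the 50 nM means lay within 0.39 of the DMSO means. EFNB2, an ephrin ligand and a gene of 45.9 kb, went the other way, from 8.33 and 8.25 to 6.17 on both arrays (-2.12, SE 0.08). Collagens and lysyl oxidases, with a median span of 109 kb and mostly low levels, had 5 of 39 higher and 3 lower, and 1 lower without 50 nM array 1. Of the 39, 12.8% were thus higher and 7.69% lower, beside 21.6% and 23.1% of all genes. The list median of 0.05 (SD 0.07) fell just below 0 without 5 nM array 1. COL5A2 (0.71, SE 0.07), COL25A1 (0.69, SE 0.07) and COL4A1 (0.61, SE 0.06) were higher, and LOX (-0.75, SE 0.11) was lower.

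**Figure D4:**
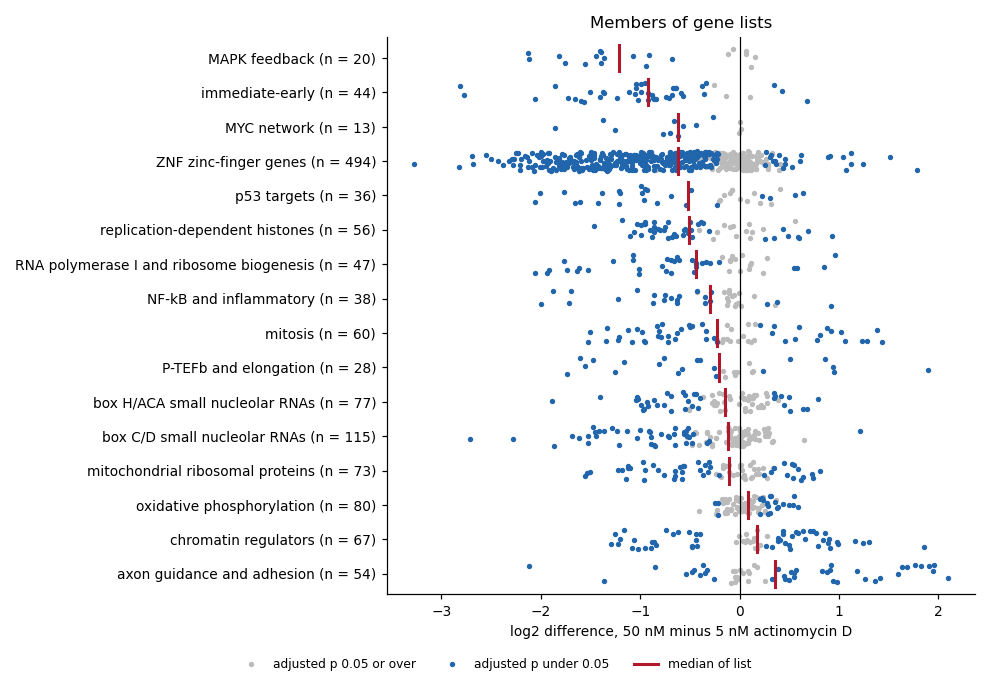
Log2 difference between 50 and 5 nM (x axis) of every measured member of 16 gene lists (y axis, with the number measured), blue where the adjusted p is under 0.05. The red bar is the list's median, from -1.21 for MAPK feedback to 0.36 for axon guidance and adhesion. No median shown changed sign under the 3 other scalings.

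Genes that EWS-FLI1 is known to activate were divided between the doses. Of 45 literature targets measured, 20 (44.4%) were higher at 50 nM than at 5 nM and 12 (26.7%) lower. Among all genes the shares were 21.6% and 23.1%. The list median was 0.15 (SD 0.05). DKK2, a WNT pathway regulator, read 9.57 and 9.60 at 5 nM, 11.29 and 11.34 at 50 nM and 11.82 and 11.70 with DMSO (1.73, SE 0.07). NKX2-2, a homeobox factor needed for the transformed state of Ewing cells, read 9.76 and 9.96 at 5 nM and 7.52 and 7.72 at 50 nM, with DMSO at 9.85 and 9.81 (-2.24, SE 0.11). VEGFA, the endothelial growth factor, read 10.56 and 10.58 against 8.77 and 8.51, with DMSO at 10.36 and 10.28 (-1.93, SE 0.09). DKK2 was thus below DMSO mainly at 5 nM, and NKX2-2 and VEGFA were below DMSO at 50 nM. Among other markers of the line, PRKCB (0.98, SE 0.07), BCL11B (0.92, SE 0.07) and LIPI (0.89, SE 0.08), all over 100 kb, were higher at 50 nM. Of the 94 measured genes of the signature that the study drew from its FLI1 shRNA arrays, 36 (38.3%) were higher and 45 (47.9%) lower. Their median was -0.13 (SD 0.05). That list was chosen on other arrays of this series, though not on the contrast of doses. WEE1, a kinase that holds cells before mitosis and a member of it, read -1.94 (SE 0.09) on the probe set used but 0.34 and 0.74 on its others, so its direction is not settled.

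Genes that EWS-FLI1 is known to repress were 19 of 47 (40.4%) lower and 8 (17.0%) higher, beside 23.1% and 21.6% of all genes. Their median span is 15.1 kb, and 40 of them lay above the median level of all genes at 5 nM. Among protein-coding genes of a mean above 8 between 10 and 20 kb, 50.1% were lower and 12.8% higher. The list median of -0.02 (SD 0.01) turned to between 0.02 and 0.08 under the 3 other scalings. CCN2, a matricellular growth factor, read 11.49 and 11.35 at 5 nM, 9.82 on both arrays at 50 nM and 9.44 and 9.40 with DMSO (-1.60, SE 0.08). CCN1, its relative, read 10.65 and 10.67 against 9.05 and 9.12, with DMSO at 8.70 and 8.63 (-1.57, SE 0.07). SPRY1, a Sprouty protein, was lower by 1.45 (SE 0.16). CCN1 and CCN2 are also immediate-early genes, and SPRY1 and SPRY4 also feedback regulators.

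Stress programmes gave smaller lists. Unfolded protein and amino-acid stress genes were lower for 13 of 32 (40.6%) and higher for 7 (21.9%), beside 23.1% and 21.6% of all genes. Their median span is 17.2 kb. Among protein-coding genes of a mean above 8 between 10 and 20 kb, 50.1% were lower and 12.8% higher. The list median was -0.10 (SD 0.02, and 0.00 with ribosomal protein centring). HERPUD1, a factor of protein degradation at the endoplasmic reticulum, read 11.93 and 11.87 against 10.13 and 10.07 (-1.80, SE 0.07), and DNAJB9 (-1.66, SE 0.12) and XBP1 (-1.09, SE 0.09) were lower as well. Chaperone genes of the HSF1 type were lower for 9 of 20 (45.0%) and higher for 3 (15.0%), beside 23.1% and 21.6% of all genes, median -0.20 (SD 0.04). Their median span of 17.5 kb falls in the same bin, with 50.1% lower and 12.8% higher. Without 50 nM array 1, and with the 4 arrays alone, 5 were lower and 1 higher, and with ribosomal protein centring 5 were lower and 5 higher. The largest differences were in DNAJB1 (-1.26, SE 0.08), DNAJB4 (-1.17, SE 0.09), BAG3 (-1.02, SE 0.08) and HSPA1L (-0.43, SE 0.10). Cholesterol synthesis genes were lower for 7 of 24 (29.2%) and higher for 5 (20.8%), near the 23.1% and 21.6% of all genes, median -0.13 (SD 0.04). SQLE, a rate-limiting enzyme of the pathway, read 11.59 and 11.51 against 9.56 and 9.68 (-1.93, SE 0.07). INSIG1 (-1.12, SE 0.08) and MSMO1 (-0.85, SE 0.08) were lower, and ACACA, an enzyme of fatty acid synthesis that spans 322 kb, was higher (0.89, SE 0.11). Genes of the ubiquitin and proteasome list differed little, with 6 of 29 (20.7%) higher and 5 (17.2%) lower, beside 21.6% and 23.1% of all genes. None of them was past 2-fold, and the list median was 0.05 (SD 0.03). Without 5 nM array 1, 3 were lower. PSMD1 (0.70, SE 0.07), PSMD14 (0.61, SE 0.07) and PSMB7 (0.56, SE 0.07) were the largest rises and PSMD6 (-0.71, SE 0.10) the largest fall.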

How the data were processed

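RNA of A673 cells was measured on 12 arrays, 2 for each of the 6 groups in the labels. Per the paper's methods, each array took 100 ng of total RNA, and DMSO was used at 0.2%. Those methods describe the DMSO and 5 nM arrays, and the 50 nM arrays are known from the labels. The authors corrected background and normalized by RMA in affy (version not given in the sources used), and deposited the result on the log2 scale. They were used as deposited. Array medians lay between 6.672 and 6.827, and the 2 arrays of a dose correlated at 0.9949 (5 nM) and 0.9963 (50 nM). That there are 2 arrays per group limits the precision. Value columns without a sample numbered 0.

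Of 32321 probe sets, the platform table gives 19158 a single gene symbol, 1388 several and 11775 none. For the 637 genes with several probe sets, that with the highest mean over the 12 arrays was used, which left 18404 genes. A few genes of interest lack such a probe set and were not analysed here. Gene spans, promoters and microRNAs come from RefSeq (GRCh38.p14). The files name no genome build, so a span was used as a gene's length and not as a position, and 18376 of 18404 genes matched by Entrez identifier.

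The contrast of 50 with 5 nM was fitted in R 4.3.3 with limma 3.58.1, with a mean per group over all 12 arrays, 6 residual and 4.45 prior degrees of freedom, and Benjamini-Hochberg adjustment over all genes. Lists were counted and not tested. The fit was tested on simulated data. Named genes were FLI1 and EWSR1, the 12 largest rises and 12 largest falls among genes above the median level whose doses do not overlap, and up to 4 members of each list with the largest differences. Genes outside that rule, such as CD99, DUSP1, EGR1, SRF, PPP1R15A, BCL2, SKA2 and the list members that went against their list or did not pass, were chosen after their values were seen. Members, lists and tests were chosen with earlier results of these data known. Alternatives were the replicate number as a block, the 4 arrays alone, leaving out genes under percentile 40 of the mean level, the mean over probe sets, quantile normalization again, centring on the median or on 58 genes of ribosomal proteins, robust eBayes with a trend, and each of the 4 arrays left out.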

Additional observations from a re-analysis of the deposited data

Results flagged for a closer look

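Probe sets outside the named genes also separated the doses. In a limma fit of all 32321 probe sets, 664 of the 11775 with no gene symbol (5.64%) differed by more than 2-fold between 50 and 5 nM at an adjusted p under 0.01, 166 of them higher at 50 nM and 498 lower. Of the 1388 with more than 1 symbol, 85 (6.12%) did, 27 higher and 58 lower. At the same threshold 0 of either kind differed between DMSO and untreated arrays, which served as the control level. These probe sets were set aside because they enter no comparison of genes, and what they measure was not analysed here.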

How the results depend on the processing

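Counts over all genes stayed within 1.5 times of their main value in all 12 alternatives. Without 1 of the 4 arrays, genes higher at 50 nM than at 5 nM actinomycin D (3973) ranged from 3413 to 3766 and genes lower at 50 nM than at 5 nM actinomycin D (4253) from 3817 to 4150. For genes higher at 50 nM than at 5 nM actinomycin D, fold over 2 (797), the range was 729 to 911, and for genes lower at 50 nM than at 5 nM actinomycin D, fold over 2 (1224), it was 1124 to 1332. In those fits the lone array of a dose is assumed to vary like the other groups. Replicate numbers were shared by the doses, and deviations of same-numbered arrays correlated at 0.104 over 2 pairs, which does not show that they are paired. With the replicate number as a block 3923 genes were higher and 4217 lower. Of 152 named genes, 147 kept direction and side of the threshold in every alternative that tested them (139 of the 152 were tested with dim genes left out), and 0 changed direction. The others missed the threshold in some settings. They were KDR without 5 nM array 1, RPL26 with the 4 arrays alone, without 5 nM array 1 and without 50 nM array 2, RPS7 with the 4 arrays alone, ZFAS1 with the 4 arrays alone and with ribosomal protein centring, and WEE1, at -0.28, with the mean over probe sets.

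Of 912 list counts compared, 80 moved by over 1.5 times. Among these, higher oxidative phosphorylation genes went from 19 to 10 with the 4 arrays alone and to 34 with ribosomal protein centring, and ranged from 11 to 20 without 1 array, with 11 without 50 nM array 1 and 12 without 50 nM array 2. Lower box H/ACA RNAs went from 25 to 13 with dim genes left out, since fewer were tested. Of 456 list medians compared, 110 moved by at least their SD over the 4 pairings of arrays, which are not independent. With ribosomal protein centring 35 list medians moved and 3 did not. That of P-TEFb and elongation went from -0.21 to -0.11. The correlation with span moved from 0.519 to 0.335 when dim genes were included. Probe sets near background understate differences, and 2 arrays per dose do not measure how far other cultures would vary.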
